A study of Mus musculus with 20 samples.

Results

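The comparison described here sets tumors grown from Y-positive MB49 cells against the same Y-positive cells in culture. MB49 cells derive from a bladder cancer of the mouse and are kept as a line. Of the 20 RNA-seq libraries in the study, 10 were used: those titled as Y chromosome positive tumors (MP6, MP7, MP8, MP9 and MP10) and those titled as Y chromosome positive cell line (MB8, MB11, MB17, MB19 and MB34), 5 in each group. The other 10 libraries come from Y-negative MB49, 5 cultures and 5 tumors. All 10 libraries used carry the Y-positive genotype. The cultures were kept in DMEM with 10% fetal bovine serum, and the tumors grew under the skin of wild-type male C57BL/6 mice with no treatment named. A tumor library therefore holds RNA of the cancer cells and of whatever host cells the tumor contained, and host cells carry a Y chromosome too. The labels do not say which libraries came from separate cultures or animals, so a p-value here reflects only how these libraries spread, and that spread may in part be technical. Growth in the mouse and any difference in how cultures and tumors were handled cannot be told apart.

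Cancer cells in a dish and in a mouse meet different surroundings. In a tumor, blood vessels, fibroblasts and leukocytes join the cancer cells, T and NK cells can release interferon, and nutrients, oxygen and growth factors arrive through tissue. Interferon acts through transcription factors of the Stat and Irf families, shortage of amino acids and stress of the endoplasmic reticulum act through Atf4, Atf6 and Xbp1, DNA damage acts through p53, and lack of sterol acts through Srebf2. Each of these pathways has well-known target genes, which were gathered in lists and are described below in turn. The lists and their members were chosen with earlier results of these data known, so the counts of a list are a description and not an independent test.

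The libraries held 14557118 to 20656078 reads in the listed genes. Levels are given as CPM (read counts brought to a common library size), in the order MB8, MB11, MB17, MB19, MB34 for cultures and MP6 to MP10 for tumors, and changes as log2 fold changes, tumor minus culture, with their standard error (SE). Kdm5d, a histone demethylase gene of chromosome Y, stood at 6.02 to 40.6 CPM in the cultures and 10.2 to 27.6 CPM in the tumors, and Uty, another gene of that chromosome, at 6.54 to 59.6 and 9.26 to 32.0 CPM, so all 10 libraries held Y-linked RNA. Krt18 and Krt8, keratins of simple and urothelial epithelium, were present in every culture (551 to 752 and 437 to 613 CPM), while the mesenchymal filament gene Vim had a mean of 1904 ± 295 CPM (SD, n = 5) there. The first principal component of log2 CPM held 78.6% of the variance and separated tumors from cultures. Correlations of log2 CPM across genes, which are not independent replicates, were 0.953 to 0.983 among tumors, 0.961 to 0.989 among cultures and 0.806 to 0.840 between the groups.

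Genes listed in both kinds of deposited table and lying outside chromosomes X and Y numbered 14220, and 12524 had enough reads to be tested with edgeR's quasi-likelihood test. At an adjusted p under 0.05, 4145 genes were higher in tumors (33.1% of those tested) and 4057 were lower (32.4%), 8202 in all. Against a threshold of 2-fold, 1752 were higher (14.0%) and 1139 lower (9.09%). The 5 tumors lay above all 5 cultures for 3214 genes (25.7%) and below all of them for 3103 (24.8%). The median change of all tested genes was -0.01. Scaling by library totals alone raised that median to 0.19 and turned the share of higher genes among those called from 50.5% to 60.7%, and upper quartile scaling gave 0.19 and 60.8%. Because about 2 in 3 genes passed the test, the counts of each list below are to be read against 33.1% higher and 32.4% lower, and the size of a change matters more than its call.

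**Figure D1:**
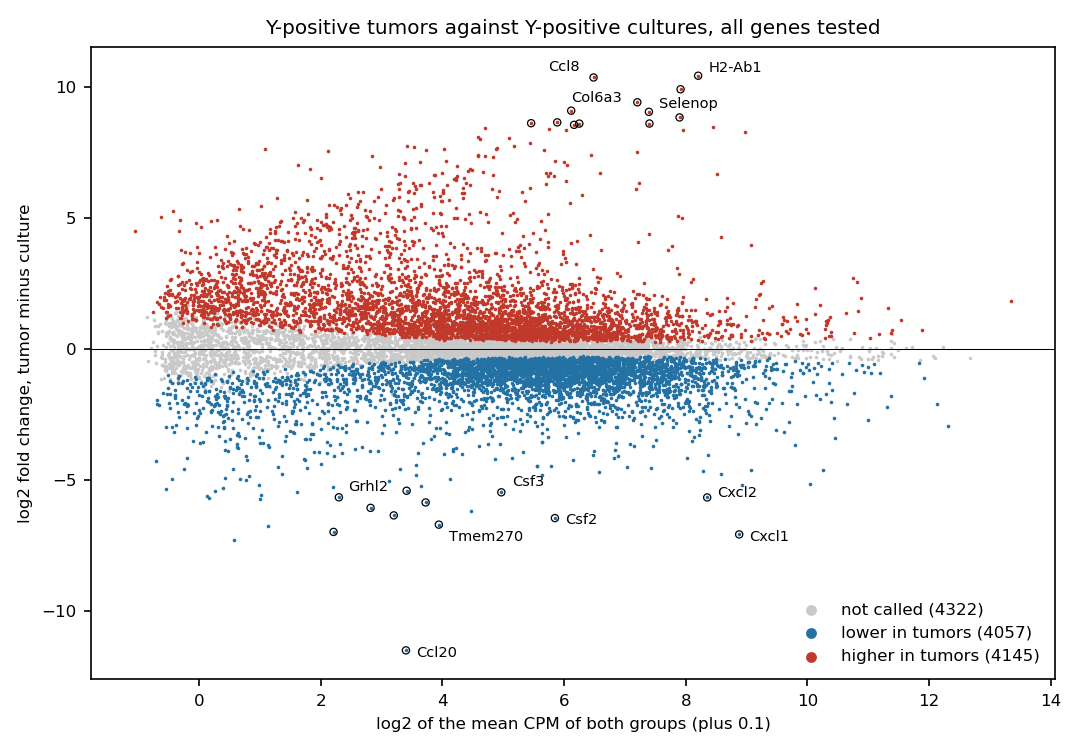
Each point is 1 of the 12524 genes tested, with the log2 of its mean CPM on the horizontal axis and its log2 fold change, tumor minus culture, on the vertical axis. Red and blue points passed an adjusted p under 0.05 (4145 higher, 4057 lower), and circles mark the 24 genes with the largest changes named in the text. Ccl20, with 0 reads in the tumors, is drawn at its fitted value, which is not a bound.

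Some reads cannot be assigned with certainty. Of the tested genes, 1671 had at least 1 near-identical copy elsewhere in the annotation (at least 95% identity over 100 bases). Genes with 5 or more copies had a median change of 0.74 (363 genes), against -0.04 for the 10853 genes with none. Processed pseudogenes took 0.268% to 0.343% of the reads in tumors and 0.0927% to 0.118% in cultures. How much of any change in a gene with copies comes from how such reads were shared was not tested, and such genes are marked where they are named.

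The largest rises were those of genes of antigen-presenting leukocytes and of connective tissue. By a rule on size, the 12 largest rises were those of H2-Ab1, Ccl8, H2-Aa, Col6a3, Fcgr2b (1 near-identical copy), Selenop, H2-Eb1, Igfbp3, F13a1, Ctss, Ccl6 and Postn, all between 8.54 and 10.42 on the log2 scale. H2-Ab1, H2-Aa and H2-Eb1 encode chains of MHC class II, which presents peptides to CD4+ T cells. Fcgr2b is an inhibitory Fc receptor, F13a1 a clotting factor subunit found in macrophages, Ctss a lysosomal protease of antigen-presenting cells, and Ccl6 and Ccl8 are chemokines. Col6a3 is a collagen VI chain, Postn a matrix protein of fibroblasts, Igfbp3 a carrier of insulin-like growth factors, and Selenop a secreted selenium transporter. The 12 largest falls were those of Ccl20, Cxcl1, Adtrp, Tmem270, Csf2, Anxa13, Cyp27b1, Svop, Cxcl2, Otog, Csf3 and Grhl2. Of these, 5 encode secreted inflammatory factors, described below. Cyp27b1 makes the active form of vitamin D and fell by 6.06 ± 0.48 (SE), from 13.7 ± 3.80 CPM to 0.192 ± 0.196 (SD, n = 5, adjusted p = 3.6e-08, edgeR). Adtrp, an enzyme that breaks down certain fatty acid esters, fell by 6.97 ± 0.65.

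Summed markers of most leukocytes, of blood vessels and of fibroblasts were far higher in the tumors, while the sums of the neutrophil and lymphatic lists were not. Each tumor sum covers more genes than the culture sum, since genes listed for tumors only have no culture value. The sums alone therefore do not give the size of a rise. Of 12 pan-leukocyte genes, 11 were tested and 9 rose with a list median of 5.69. Of the 11, 4 averaged under 1 CPM in the cultures, so little but a rise could be called for them. The summed level of the list was 823 to 1124 CPM over 12 genes in tumors, against 114 to 178 CPM over 11 in cultures. Ptprc, the leukocyte phosphatase CD45, rose by 7.58 ± 0.45, and Laptm5, Lcp1 and Coro1a rose by 7.12, 6.70 and 6.39. Vav1, a signalling protein of blood cells, did not pass the test and stood at 71.3 ± 14.3 CPM in cultures and 64.4 ± 9.18 in tumors. Part of this list was thus read in the cultured line too. In bulk RNA, fewer cells of a type and less RNA per cell cannot be told apart.

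Of 18 listed macrophage genes, 8 were tested and 7 rose, of which 2 averaged under 1 CPM in the cultures. Csf1r, the receptor for the macrophage growth factor, had 0.124, 0.486, 0.137, 0.304 and 0.467 CPM in the cultures and 114, 112, 116, 74.6 and 117 CPM in the tumors. It rose by 8.40 ± 0.28 (adjusted p = 1.3e-11, edgeR). Lyz2, the myeloid lysozyme gene (1 near-identical copy), rose by 8.27 ± 0.36, Mpeg1 by 7.38, Apoe by 6.65 and Trem2 by 6.35. Cd68, a lysosomal protein often used as a macrophage marker, stood at 92.4 ± 28.4 CPM in cultures and 92.5 ± 11.9 in tumors and did not pass the test. Of the 10 macrophage genes listed only in the tumor tables, C1qb, C1qa and C1qc, the chains of complement C1q, were highest, with means of 326, 310 and 188 CPM in the tumors. Neutrophil genes were divided. Their summed level was 464 to 1119 CPM in cultures, where Cxcl2 made up most of it on average, and 179 to 257 CPM in tumors. Of 5 tested, 2 rose and 2 fell: S100a9, a calcium-binding protein of neutrophils, rose by 5.66 ± 0.34 while Cxcl2 fell. In the cultures 3 of the 5 averaged under 1 CPM, so little but a rise could be called for them. The other 4 genes of the list, among them Il1r2 and Csf3r at means of 14.4 and 14.3 CPM in the tumors, are listed for tumors only.

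Being listed only in the tumor tables does not show that a gene was silent in culture, and such genes could not be tested. They belong to most of the lists described here, whose counts cover tested genes. Reads of unlisted genes came to 1039 to 1608 CPM in all in these cultures, and the tumor-only genes together took 11440 to 18270 CPM in the tumors. For T cells, 14 of 16 genes were listed in the tumors only, with Trbc2, Cd8a and Lck, which encode a receptor chain, a coreceptor and its kinase, at means of 14.6, 13.5 and 11.8 CPM. Cd3d, a chain of the T cell receptor complex, had 3 reads in all cultures and 805 in the tumors, a ratio of 250.5 (95% counting interval 85.4 to 1217, counting error only). The cytotoxic granule genes Gzmb and Gzma, listed in the tumors only, had means of 26.0 and 14.1 CPM. For mast cells, Cpa3 rose by 4.26 ± 0.50, and Mcpt4 had a mean of 20.3 CPM in the tumors. Of the B and plasma cell list, Ighm, Igkc and Jchain rose (5.00, 5.24 and 4.13), but Pax5, the B cell transcription factor, fell by 1.57 ± 0.18 from 22.9 ± 3.78 CPM in cultures to 7.71 ± 1.41 in tumors.

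All 7 tested endothelial genes rose by more than 2-fold (14.0% of all genes) with no overlap between the groups (25.7%). Of the 7, 3 averaged under 1 CPM in the cultures, Pecam1 among them, so little but a rise could be called for these. Pecam1, an adhesion molecule of vessel lining, had 0.497, 0.324, 0.481, 0.532 and 0.734 CPM in the cultures and 31.3, 34.7, 24, 36.6 and 30.7 CPM in the tumors, and rose by 5.93 ± 0.23 (adjusted p = 5.1e-11, edgeR). Vwf, the carrier of clotting factor VIII, rose by 4.23 and Flt1, a receptor of vascular endothelial growth factor, by 3.76. The lymphatic list summed to 135 to 158 CPM in cultures, over 1 gene, and 95.05 to 172 in tumors, over 4. These sums overlap. Lyve1 and Flt4, listed for tumors only, had means of 9.34 and 2.1 CPM there. The 1 tested gene, Pdpn, the podoplanin gene, fell by 0.45 ± 0.17. That call was lost with upper quartile scaling, library totals alone or the model over 20 libraries, and without any one of MB17, MP6, MP7 and MP10. Rgs5 and Acta2, genes of pericytes and smooth muscle, rose by 6.34 and 4.47. Of 6 tested genes of that list and 4 of the fibroblast list, 5 and 3 averaged under 1 CPM in the cultures. Of the fibroblast genes, Postn, Col14a1 and Mfap5 rose by 8.54, 5.47 and 5.31, and Pdgfra, a receptor of platelet-derived growth factor that marks fibroblasts, stood at 14.9 ± 6.36 CPM in cultures and 16.2 ± 2.79 in tumors without passing the test. Dcn, the fibroblast proteoglycan decorin, was listed in the tumors only, at 160 to 225 CPM.

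The tumors differed among themselves most in muscle. The summed level of skeletal muscle genes was 12.1 CPM in MP6, 694 in MP7, 272 in MP8, 2965 in MP9 and 365 in MP10. The tumor sums cover 12 genes. Only 3 of them are listed for the cultures, with sums of 7.75 to 16.3 CPM, so these sums do not place MP6 against the cultures. Adipocyte genes were also highest in MP9 (287 CPM, the others 62.6 to 112). Mast cell genes were lowest in MP7 (25.5 CPM, the others 71.3 to 86.5), and red blood cell genes ran from 442 CPM in MP9 to 1243 CPM in MP8. Macrophage genes, at 2942 to 4558 CPM, and endothelial genes, at 181 to 262 CPM, varied less than 2-fold among the tumors. Without MP9, 4200 genes were higher and 3943 lower.

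**Figure D2:**
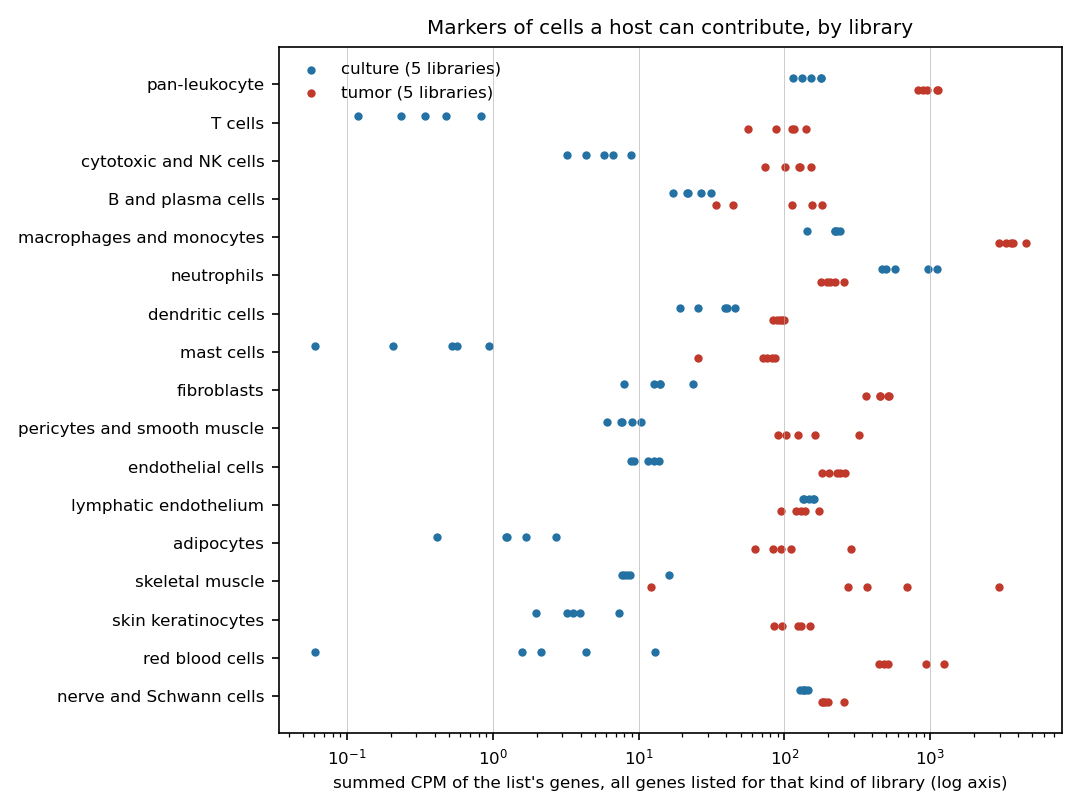
Summed CPM of the marker genes of each cell type (horizontal log axis) in each of the 5 cultures (blue) and 5 tumors (red), over the genes listed in that kind of table. Skeletal muscle spans 12.1 to 2965 CPM among the tumors, while macrophage markers stay between 2942 and 4558 CPM, all above the cultures. Tumor sums cover more genes than culture sums (for macrophages 18 and 8). The neutrophil sum, which is higher in cultures, includes Cxcl2.

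Antigen presentation genes rose in both classes. Of the MHC class II list all 6 tested genes rose, with a median of 6.89, and 2 of the 6 averaged under 1 CPM in the cultures. H2-Ab1 had 0, 1.03, 0, 1.06 and 0 CPM in the cultures and 369, 468, 903, 559 and 648 CPM in the tumors, which do not overlap. H2-DMa, which loads peptides onto class II molecules, rose by 4.96 ± 0.25. Cd74, the invariant chain, was already at 387 to 719.8 CPM in the cultures and rose by 1.08 ± 0.21 (adjusted p = 0.0004, edgeR) to 766 to 1478 CPM. Of 17 class I genes tested, 14 rose and Calr, a chaperone of peptide loading, fell by 0.79 ± 0.20.

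Changes in the class I list differed widely in size. Psmb9, an immunoproteasome subunit that interferon induces, rose by 7.02 ± 0.39, from 1.04 ± 0.776 to 131 ± 42.8 CPM (SD, n = 5). Psme1, an activator of the proteasome, rose by 3.76 ± 0.19, Erap1, a peptide-trimming protease, by 1.93 ± 0.14, and Tap1 (1 near-identical copy) and Tap2, the peptide transporter, by 1.22 and 1.45. The light chain gene B2m and the heavy chain gene H2-K1 rose by 1.01 and 1.07, and H2-D1 stood at 2067 ± 359 CPM in cultures and 2135 ± 290.4 in tumors without passing the test. Class I heavy chain genes resemble each other, and H2-T23, which rose by 2.07, has 5 near-identical copies.

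Genes that interferon induces rose together. Of 24 tested genes of the interferon response list, 22 rose and 2 fell, beside 33.1% and 32.4% of all genes. Past 2-fold, 20 rose (14.0% of all genes), and the list median was 4.71. Of the 24, 7 averaged under 1 CPM in the cultures, so little but a rise could be called for them. Both genes that fell are themselves induced by interferon: Irf1, a transcription factor, fell by 0.73 ± 0.23 and Ddx58, the RNA sensor RIG-I, by 0.44 ± 0.15. Irf1 did not pass in the model over 20 libraries, and Ddx58 passed neither there nor with upper quartile scaling or library totals alone. Ifit3, which restrains viral replication (1 near-identical copy), had 0.0621, 0.0540, 0.275, 0.228 and 0.133 CPM in the cultures and 40.2, 42.3, 73.2, 44.6 and 59.2 CPM in the tumors. It rose by 8.43 ± 0.33 (adjusted p = 4.3e-11, edgeR), and Igtp, a GTPase of the interferon gamma response, by 8.36 ± 0.32. Usp18, which removes the ubiquitin-like modifier Isg15 and limits the response, rose by 5.99 ± 0.27. These genes are expressed by leukocytes as well as by other cells. The leukocyte list moved with them (823 to 1124 CPM over 12 genes in tumors, 114 to 178 CPM over 11 in cultures). Its part in the result was not tested.

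The start regions of these genes are shown because a short motif recurs in them. Motifs and windows here and below were chosen after the changes were seen. The windows are from RefSeq promoters of build GRCm38.p6 and span 150 of the 250 bases before a transcription start, written in the direction of the gene. Capitals mark the letters GAAANNGAA on either strand, the core of the element that Stat and Irf factors bind. Overlapping matches are joined.

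Ifit3 (chr19:34583334-34583483, plus strand): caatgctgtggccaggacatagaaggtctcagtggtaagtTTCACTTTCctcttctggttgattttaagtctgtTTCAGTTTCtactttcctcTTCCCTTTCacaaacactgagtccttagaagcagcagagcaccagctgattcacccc

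Isg15 (chr4:156200819-156200968, minus strand): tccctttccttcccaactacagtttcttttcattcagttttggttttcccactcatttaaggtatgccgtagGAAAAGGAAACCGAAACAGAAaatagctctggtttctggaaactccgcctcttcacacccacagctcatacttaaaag

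Of the 20 interferon response genes with a RefSeq window, 12 held GAAANNGAA in the 250 bases (60%), against 7.38% of the 9242 tested genes with a window. In Ifit3 the 3 matches begin 155, 121 and 102 bases before the start, and in Isg15 (1 near-identical copy) overlapping matches begin 78, 72 and 66 bases before it. All 12 genes that held the letters passed the test, as did all 24 tested genes of the list, with or without them. A match is a run of letters and does not show that a factor bound there.

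Secreted inflammatory factors did not move as one. Of 15 tested chemokine and cytokine genes, 8 fell and 6 rose, all 14 by more than 2-fold. Over all genes, 9.09% fell and 14.0% rose past 2-fold. The other 10 of the 25 genes listed were read in the tumors and are not listed for the cultures, so these counts miss any rise among them. Their means in the tumors ran from 1.06 to 144 CPM, the highest being that of Cxcl9, which interferon gamma induces, at 84.4, 88.5, 251, 100.5 and 197 CPM. Cxcl1, which attracts neutrophils, had 1028, 896, 1470, 322 and 956 CPM in the cultures and 3.18, 8.13, 6.60, 6.36 and 10.4 CPM in the tumors. It fell by 7.07 ± 0.42 (adjusted p = 2.2e-09, edgeR). Cxcl2, of the same family, fell by 5.66 ± 0.43. Csf2, the granulocyte-macrophage growth factor, had 95.3, 121, 120, 5.93 and 227 CPM in the cultures and 0.758, 1.16, 1.23, 1.96 and 1.41 CPM in the tumors. Culture MB19 was the lowest of the cultures for Cxcl1, Cxcl2, Csf2, Csf3 and Ccl20, and it still lay above all tumors.

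Ccl20, which attracts cells that carry Ccr6, had 1603 reads in the 5 cultures and 0 in the 5 tumors, which makes it at least 572-fold lower if 3 reads over all tumors are taken as the limit of detection. The cultures stood at 16.9, 11.6, 35.8, 4.86 and 35.5 CPM. Csf1, the macrophage growth factor, fell by 3.67 ± 0.17, from 1647 ± 154 CPM to 129.8 ± 25.2. Ccl2, which attracts monocytes, fell by 3.22 ± 0.41, and Csf3, the granulocyte growth factor, by 5.46 ± 0.37. Among the genes that rose, Ccl8, a monocyte attractant, had at most 0.228 CPM in a culture and 89.4, 74.2, 238, 304 and 188 CPM in the tumors. Cxcl16, a membrane-bound chemokine, rose by 7.35 ± 0.33, and Cxcl10, which interferon induces and which attracts T cells, by 2.33 ± 0.26. Il34, a further ligand of Csf1r, rose by 2.15 ± 0.17 while Csf1 fell.

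The start regions of Cxcl1 and Cxcl2 are shown for the pair of sites that lies close to the start in both. Capitals mark GGNNTTTCC on either strand, a common form of the site of NF-kappa B, the factor that drives many inflammatory genes.

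Cxcl1 (chr5:90891095-90891244, plus strand): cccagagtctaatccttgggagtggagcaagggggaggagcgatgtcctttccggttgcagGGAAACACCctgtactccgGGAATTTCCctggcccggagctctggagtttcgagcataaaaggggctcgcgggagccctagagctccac

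Cxcl2 (chr5:90903749-90903898, plus strand): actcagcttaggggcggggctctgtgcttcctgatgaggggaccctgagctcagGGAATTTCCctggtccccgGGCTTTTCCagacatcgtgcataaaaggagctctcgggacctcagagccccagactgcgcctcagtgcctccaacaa

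Of the 10 tested chemokine and cytokine genes with a window, 5 held these letters (50%), against 6.54% of the 9242 genes. They were Ccl20, Cxcl1 and Csf1, which fell, and Ccl9 and Cxcl10, which rose. Genes with the motif thus moved in both directions. Cxcl2 belongs to the neutrophil list and is not in that count.

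Many matrix genes rose, but not all of them. Of 17 collagen chains tested, 10 rose, all past 2-fold (14.0% of all genes), 3 fell and the median was 1.64. In the cultures 3 of the 17 averaged under 1 CPM. Col3a1, the chain of type III fibrillar collagen, had 0.497, 1.46, 1.31, 4.86 and 1.94 CPM in the cultures and 869, 356, 744, 831 and 689 CPM in the tumors. Col1a1 and Col1a2, the chains of type I collagen, rose by 6.32 ± 0.27 and 7.51 ± 0.38. Col6a1, a chain of beaded filaments, was at 37.4 ± 23.6 CPM in the cultures and rose by 4.28 ± 0.51. The chains that fell belong to basement membrane or to vessel walls: Col4a2 fell by 1.18 ± 0.23, Col18a1 by 0.90 ± 0.23 and Col8a1 by 1.01 ± 0.12. Col4a1, the partner of Col4a2, stood at 677 ± 182 CPM in cultures and 519.7 ± 177 in tumors and did not pass the test.

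Matrix glycoproteins followed a like pattern, with 10 of 14 rising and 3 falling (33.1% and 32.4% of all genes). Of the 14, 6 averaged under 1 CPM in the cultures, so little but a rise could be called for them. Tnc and Thbs2, adhesion-modulating proteins, rose by 6.58 and 7.64, and Fbn1, the microfibril protein, by 7.59. Lamc1, Lamb1 and Hspg2, components of basement membrane, fell by 1.29, 0.82 and 1.08. Basement membrane genes as a whole cannot be judged from these: Nid1 and Lama4, of the same structure, are among 6 genes of the list with no value for the cultures, and stood at 212 to 409.5 and 10.9 to 18.3 CPM in the tumors. Of 18 proteases and inhibitors, 8 rose and 6 fell, where 33.1% and 32.4% of all genes did, so the counts give no direction for the list. In the cultures 5 of the 18 averaged under 1 CPM, so little but a rise could be called for them. Mmp2, Mmp3 and Ctsk, which cut collagen or other matrix proteins, rose by 4.79, 5.93 (2 near-identical copies) and 4.96. The plasminogen activator Plau and its receptor Plaur fell by 1.22 and 2.05. Fibroblast markers moved with the rising genes (362 to 521 CPM over 12 genes in tumors, 7.88 to 23.8 CPM over the 4 listed for cultures). Their part in the result was not tested.

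Epithelial genes did not move as one. Of 11 tested urothelial and epithelial genes, 4 rose and 4 fell, close to the shares over all genes (33.1% and 32.4%), so the counts give the list no direction. In the cultures 2 of the 11 averaged under 1 CPM. Krt8 (1 near-identical copy) had 489, 613, 459, 601 and 437 CPM in the cultures and 3316, 3077, 3152, 3017 and 2868 CPM in the tumors, and rose by 2.57 ± 0.16. Krt18, its partner, rose by 1.33 ± 0.16, Krt19 by 3.86 ± 0.40, and Cdh1, the epithelial cadherin, by 3.71 ± 0.43 to 5.41 ± 1.76 CPM. The 4 genes that fell encode transcription factors. Grhl2, a factor of epithelial junctions, had 30.6, 32.5, 14.8, 1.14 and 24 CPM in the cultures and 0.232 to 0.913 CPM in the tumors, and fell by 5.41 ± 0.68. Elf3 fell by 3.22 ± 0.38, Gata3, a factor of luminal bladder epithelium, by 3.0 ± 0.25, and Klf5 by 1.53 ± 0.18. Foxa1 stood at 12.4 ± 1.46 CPM in cultures and 9.99 ± 2.12 in tumors and did not pass the test.

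Of 8 mesenchymal genes, 4 rose and 2 fell, where 33.1% and 32.4% of all genes did. Vim rose by 1.09 ± 0.18, the calcium-binding protein gene S100a4 by 2.63 ± 0.33, and Fn1, fibronectin, by 1.02 ± 0.32. Snai2 and Zeb1, repressors of epithelial genes, fell by 2.76 ± 0.20 and 1.0 ± 0.17, while the transcription factor gene Twist2 rose by 0.70 ± 0.21. Krt14, a basal keratin also made in skin, rose by 6.59 ± 0.47, from 1.10 ± 1.27 to 105 ± 29.2 CPM. Whether skin taken with the tumors had a part in this was not tested.

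Genes known to respond to serum, adhesion and growth factors were mostly lower in tumors. Of 20 tested immediate early genes, which respond within minutes to serum and stress, 17 fell and none rose (32.4% and 33.1% of all genes). The remaining 2 of the list, Atf3 and Klf2, are listed for tumors only, at 5.84 to 12.05 and 3.52 to 9.73 CPM, and are not in that count. Fosl1, a subunit of the AP-1 factor, had 454, 470, 630, 334 and 692 CPM in the cultures and 79.2, 110, 77.4, 80.4 and 78.8 CPM in the tumors, and fell by 2.60 ± 0.20 (adjusted p = 2.5e-08, edgeR). Jun fell by 2.05 ± 0.15, Klf6 by 2.05 ± 0.17 and Myc, a driver of growth, by 2.07 ± 0.18. Egr3 stood at 0.858 ± 0.440 CPM in cultures and 0.887 ± 0.167 in tumors and did not pass the test. Of 9 tested targets and partners of YAP and TAZ, which read cell stretching and density, 8 fell, among them Ccn1 by 2.43 ± 0.20, Crim1 by 2.11 ± 0.15 and the DNA-binding partner Tead1 by 2.10 ± 0.19. A further 4 members are listed for tumors only and could not be tested, among them the well-known target Ccn2 at a mean of 13.3 CPM. Ajuba stood at 16.7 ± 1.15 CPM in cultures and 17.1 ± 2.18 in tumors and did not pass the test.

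Genes of TGF-beta signalling were divided, with 8 of 13 falling and 5 rising, where 32.4% and 33.1% of all genes did. Inhba, a subunit of activins, fell by 3.70 ± 0.27, the ligand gene Tgfb2 by 3.0 ± 0.22, and Smad7, an inhibitor that the pathway induces, by 2.08 ± 0.15. Tgfbi, a matrix protein that the pathway induces, went the other way and rose by 6.08 ± 0.32, and Tgfb3 and Tgfb1 rose by 1.15 and 0.59.

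Tested clock genes fell in all but 1 case. Of 14 tested genes, 13 fell (32.4% of all genes) and Bhlhe41, a repressor of the clock, rose by 0.87 ± 0.17. Nr1d1, the nuclear receptor that represses Arntl, had 739, 806, 660, 350 and 544 CPM in the cultures and 50, 42.9, 27.4, 34.8 and 33.6 CPM in the tumors, and fell by 4.04 ± 0.24. Ciart (1 near-identical copy), Tef and Cry1 fell by 3.04, 2.17 and 1.92. Activators and repressors of the loop fell alike, since Arntl and Clock fell by 1.85 and 0.71 and Per1, Per2 and Per3 by 2.38, 1.70 and 1.28. The labels used here give no time of day at which cultures or tumors were taken.

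The p53 target genes showed some of the largest falls. Of 14 tested, 12 fell, all past 2-fold (9.09% of all genes), and the list median was -2.92. Cdkn1a, the p21 inhibitor of the cell cycle, had 1443, 1320, 1682, 1227 and 1432 CPM in the cultures and 138, 159, 169, 174 and 143 CPM in the tumors. It fell by 3.18 ± 0.15, a 9.08-fold difference (adjusted p = 3.2e-10, edgeR). Mdm2, the ubiquitin ligase that removes p53, had 790 to 1747 CPM in the cultures and 123 to 171 CPM in the tumors, Bbc3, which encodes the death protein Puma, fell by 3.61 ± 0.21, and Plk2, a kinase of the stress response, by 4.62 ± 0.17, from 2347 ± 409 to 95.8 ± 5.09 CPM. Sesn1, a stress protein, rose by 2.92 ± 0.17, against its relative Sesn2, which fell by 2.96 ± 0.14. Phlda3, at 3.12 ± 1.43 CPM in cultures and 5.56 ± 3.07 in tumors, did not pass the test.

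Genes of amino acid transport and targets of Atf4 were lower in tumors almost without exception. Of 21 tested, 20 fell (32.4% of all genes) and none rose, with a median of -2.08. For all 21 the tumors lay below every culture, as they did for 24.8% of all genes. The exception to the calls was Gars, a tRNA synthetase gene, at 308 ± 11.6 CPM in cultures and 256 ± 26.7 in tumors. Asns, asparagine synthetase, had 806, 932, 1014, 797 and 936 CPM in the cultures and 118, 162, 108, 124 and 115 CPM in the tumors, and fell by 2.84 ± 0.15 (adjusted p = 8.8e-10, edgeR). Slc7a11, the cystine importer, fell by 4.15 ± 0.29, Trib3, a feedback inhibitor of Atf4, by 3.12 ± 0.20, and Ddit3, the Chop factor, by 3.49 ± 0.27. Atf4 itself fell by 1.78 ± 0.18, from 1552 ± 204 to 450.4 ± 114 CPM.

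Start regions of Asns and Slc7a11 are shown for the letters TTNCATCA on either strand (capitals), a form of the site that Atf4 binds with its partners of the C/EBP family.

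Asns (chr6:7693210-7693359, minus strand): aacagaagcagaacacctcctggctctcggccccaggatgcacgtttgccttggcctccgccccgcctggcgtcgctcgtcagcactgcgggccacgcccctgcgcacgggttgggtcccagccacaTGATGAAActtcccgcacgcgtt

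Slc7a11 (chr3:50443614-50443763, minus strand): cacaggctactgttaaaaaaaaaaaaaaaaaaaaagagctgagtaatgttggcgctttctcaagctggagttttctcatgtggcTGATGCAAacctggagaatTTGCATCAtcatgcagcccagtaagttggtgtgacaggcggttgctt

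Of 18 tested genes of the list with a RefSeq window, 6 held these letters (33.3%), against 2.39% of the 9242 genes. Slc7a11 holds 2 matches, 66 and 47 bases before the start, and Asns 1, at 23 bases. The others were Aars, Chac1, Nupr1 and Gars, and of the 6 only Gars did not pass the test, as in the list as a whole. For 3 other lists a motif was searched on both strands in the same 250 bases and no window is shown. The sterol element TCACNCCAC was held by 1 of 12 cholesterol synthesis genes with a window (8.33%, against 1.31% of the 9242 genes), the E-box CACGTG by 5 of 12 clock genes (41.7%, against 9.89%) and the element TTTGAA of cell cycle promoters by 8 of 20 mitosis genes (40%, against 12.6%).

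The unfolded protein response list, a neighboring pathway, had 10 of 16 genes lower and none higher (32.4% and 33.1% of all genes). Hspa5, the main chaperone of the endoplasmic reticulum, had 5794, 6281, 12853, 11800 and 8277 CPM in the cultures and 998, 1229, 1157, 1333 and 1218 CPM in the tumors, and fell by 2.92 ± 0.24. The sensors Ern1 and Atf6 fell by 1.77 and 1.61, and Herpud1, which serves degradation of misfolded proteins, by 1.59. Hsp90b1, a chaperone of the same compartment, at 1027 ± 341 CPM in cultures and 817 ± 141 in tumors, did not pass the test. In the cytosol the heat shock genes Hsp90ab1 and Hspa8 rose by 1.55 ± 0.16 and 2.69 ± 0.21, the latter with 6 near-identical copies, and Cct6a, a chaperonin subunit, fell by 1.30 ± 0.17. Of 17 targets of Nrf2, the factor of oxidative stress, 10 fell and 4 rose (32.4% and 33.1% of all genes). Txnrd1, thioredoxin reductase, was down by 1.57 ± 0.15, Osgin1 by 3.12 ± 0.21, and Gsr, glutathione reductase, up by 0.83 ± 0.16.

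Of 23 tested genes of lysosomes and autophagy, 9 fell and 7 rose, close to the shares over all genes (32.4% and 33.1%), so the counts give the list no direction. Single members changed by large steps. Sqstm1, the receptor p62, fell by 2.72 ± 0.18, from 3542 ± 661 to 539 ± 71.8 CPM, and Gabarapl1, a membrane tag of autophagosomes, by 2.65 ± 0.16. The cathepsin gene Ctsz rose by 7.15 ± 0.24, from 0.812 ± 0.343 to 114 ± 13.6 CPM, and Gusb, a glucuronidase, by 2.01 ± 0.13. Ctsd and Ctsl, also cathepsins, were not raised: Ctsd fell by 0.52 ± 0.14, though not with upper quartile scaling, and Ctsl had 1194 ± 92.2 CPM in cultures and 1088 ± 291 in tumors and did not pass the test.

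**Figure D3:**
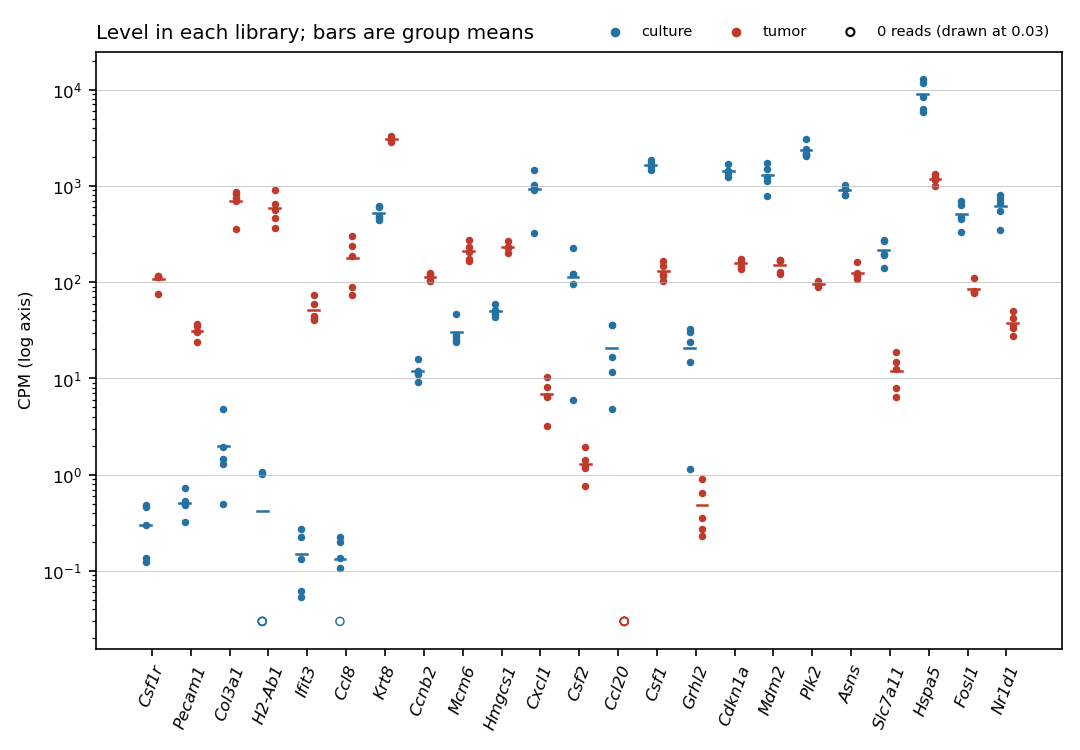
CPM on a log axis in each of the 5 cultures (blue) and 5 tumors (red) for 23 genes described in the text, with bars at the group means. Open circles at 0.03 mark libraries with 0 reads. Genes at the left are higher in every tumor, from Csf1r to Hmgcs1, and genes at the right, from Cxcl1 to Nr1d1, are lower in every tumor. Grhl2 and Csf2 have 1 culture, MB19, near the tumors.

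Cell cycle genes rose. Of 27 DNA replication genes 25 rose and none fell, and of 25 mitosis genes 23 rose and none fell. Over all genes, 33.1% rose and 32.4% fell. The medians of these lists were 1.43 and 1.33. Mcm6, a subunit of the replicative helicase (1 near-identical copy), had 25.1, 28.0, 27.2, 23.8 and 47.1 CPM in the cultures and 231, 272, 176, 168 and 205 CPM in the tumors, and rose by 2.80 ± 0.20. Pold1 and Lig1, which extend and join DNA strands, rose by 2.49 and 2.37. Ccnb2, a mitotic cyclin, had 11, 9.23, 11.2, 11.9 and 15.9 CPM in the cultures and 110, 123, 103, 122 and 103 CPM in the tumors, and rose by 3.24 ± 0.16 (adjusted p = 4.1e-10, edgeR). Birc5, the survivin gene, rose by 3.04 ± 0.16, Aurkb, a mitotic kinase, by 1.64 ± 0.14 and Mki67, a marker of cycling cells, by 2.01 ± 0.18. The genes that did not pass were Fen1 and Cdt1 in replication (5.94 and 57.2 CPM on average in cultures, 6.53 and 64.2 in tumors) and Prc1 and Aurka in mitosis (123 and 69.8 CPM, 144 and 83.2). Among replication genes with no near-identical copy, 18 of 20 rose.

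Of 24 tested genes of ribosome biogenesis, many of them Myc targets, 12 fell and 5 rose (32.4% and 33.1% of all genes), with a median of -0.41. Odc1, the first enzyme of polyamine synthesis (3 near-identical copies), fell by 2.09 ± 0.23, and Polr1a, the large subunit of RNA polymerase I, by 0.84 ± 0.17, while Npm1, nucleophosmin (4 copies), rose by 1.10 ± 0.16. Of 30 ribosomal protein genes, 7 rose and 3 fell, both below the shares over all genes. Their median of -0.02 turned to 0.17 with library totals alone. As 29 of the 30 have near-identical copies, single calls among them are uncertain. Of 21 proteasome genes, 8 fell and 2 rose, where 32.4% and 33.1% of all genes did. The share that fell is thus close to that over all genes. Their median of -0.13 turned to 0.06 with library totals alone.

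Sterol synthesis rose along nearly its whole length. Of 19 tested genes, 18 rose (33.1% of all genes), 12 of them past 2-fold (14.0%), and Sc5d, a late enzyme, fell by 0.34 ± 0.12. The call of Sc5d was lost with 4 other model or scaling choices and without any one of the cultures MB17, MB19 and MB34. Hmgcs1, the first committed enzyme, had 51.4, 49.1, 59.9, 43.7 and 46.9 CPM in the cultures and 226, 266, 202, 234 and 230 CPM in the tumors, and rose by 2.20 ± 0.13 (adjusted p = 2e-09, edgeR). Cyp51, which removes a methyl group from lanosterol, rose by 2.11 ± 0.13, from 55.2 ± 6.21 to 238 ± 27.6 CPM. Among 11 genes of fatty acid synthesis 9 rose and none fell, by smaller steps, with Fasn, fatty acid synthase, up by 1.01 ± 0.18, Scd2, a desaturase, by 2.09 ± 0.23, and Acaca, at 48.5 ± 6.43 CPM in cultures and 47.6 ± 13.3 in tumors, not passing the test.

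Hypoxia and glycolysis genes rose in the main, with 16 of 25 higher and 4 lower (33.1% and 32.4% of all genes). Car9, a carbonic anhydrase that hypoxia induces, had 1.24, 2.0, 0.687, 17.5 and 4.20 CPM in the cultures and 75.3, 106, 67.5, 75.6 and 78.3 CPM in the tumors, and rose by 4.01 ± 0.61. Pdk1, which diverts pyruvate from mitochondria, rose by 2.26 ± 0.22, Adm, a vessel-dilating peptide, by 1.93 ± 0.17, and Tpi1, a glycolytic enzyme (1 near-identical copy), by 2.07 ± 0.16. Vegfa, the vessel growth factor, and Pfkfb3, a regulator of glycolysis, are also known targets of hypoxia and fell by 1.64 ± 0.14 and 1.93 ± 0.15. Nuclear genes of oxidative phosphorylation had no common direction, with 5 of 24 higher and 7 lower, and their median of -0.01 turned to 0.17 with library totals alone. Cycs, cytochrome c (4 near-identical copies), and Cox5a fell by 1.32 ± 0.19 and 1.22 ± 0.18.

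Of 12 mitochondrially encoded genes, 10 rose, and 9 have near-identical copies. In the cultures 2 of the 12 averaged under 1 CPM. mt-Co3, mt-Co2 and mt-Atp6, at 9.11, 7.76 and 6.52 CPM on average in cultures, rose by 2.71, 2.56 and 2.75, and each has such a copy. mt-Co1, a gene with far more reads, ran from 4359 to 5034 CPM in the cultures and from 1783 to 5928 CPM in the tumors and did not pass the test. In one-carbon metabolism, the mitochondrial enzymes Aldh1l2 and Mthfd2 fell by 2.60 ± 0.19 and 1.61 ± 0.16, while Tyms, thymidylate synthase (3 near-identical copies), rose by 2.38 ± 0.18.

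**Figure D4:**
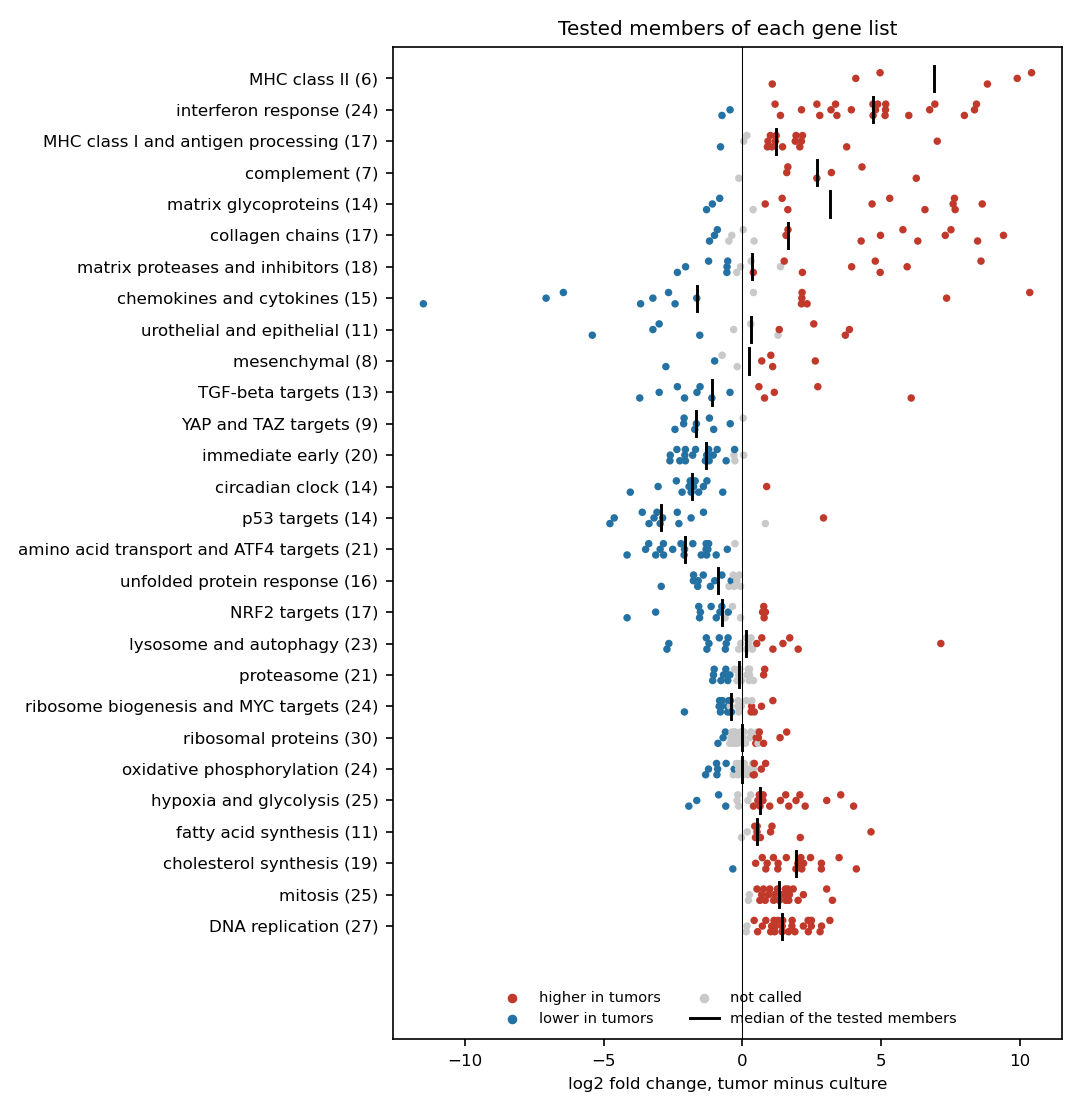
Each point is a tested member of the list named at the left (number tested in brackets), placed by its log2 fold change, tumor minus culture. Red and blue points passed an adjusted p under 0.05 and the black bar is the list's median. Medians run from 6.89 for MHC class II to -2.92 for p53 targets, and the p53, Atf4, clock and immediate early lists lie almost wholly below 0.

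The change was largely shared with Y-negative MB49, whose 5 tumors were compared with its own 5 cultures. The Y-negative changes and calls come from a model over all 20 libraries. Those of Y-positive MB49 come from a fit to the Y-positive libraries alone, so the fits set side by side here are not alike. Of the 8202 genes called in the Y-positive comparison, 5822 were called in the same direction in the Y-negative one (71.0% of the Y-positive calls, 81.4% of the 7154 Y-negative calls) and 62 in the opposite direction. The difference between the changes was tested in a model over 20 libraries and passed for 621 of 13340 genes (4.66%), with 316 more positive and 305 more negative in the Y-positive comparison. Leaving out single libraries moved this number between 169 and 1046, and 11 of the 20 libraries, left out singly, moved it by over 1.5 times, 9 of them downward, so the count is unstable. At an unadjusted p under 0.05, 3038 of the 13340 genes passed the test of the difference. The p53 list had medians of -2.92 and -2.61 in the Y-positive and Y-negative comparisons and the Atf4 list of -2.08 and -1.78. No gene of either list passed the test of the difference after adjustment. As only 4.66% of all genes did, this does not show that the changes in these lists were equal.

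The clock list held the most such genes of all lists, 8 of 14, each with the more negative change in Y-positive MB49. Per3 fell by 1.28 in the Y-positive comparison and had a change of 0.70 in the Y-negative one, a difference of -1.97 ± 0.30 (adjusted p = 0.0028, edgeR). By the smallest adjusted p, the 5 genes with the more positive change were Noa1, Nes, Esco2, Gusb and Pbk, and the 5 with the more negative change were Ltbp2, Ampd3, Gigyf1, Mbd6 and Tctn1. The fall of Tctn1 in Y-positive MB49 did not pass with upper quartile scaling or library totals alone. Nes, the filament gene nestin, rose by 3.56 ± 0.34 in Y-positive MB49 and had a change of 0.54 in Y-negative MB49. Ltbp2, a latent TGF-beta binding protein gene, fell by 1.64 ± 0.16 and had a change of 0.23 in Y-negative MB49. Esco2, which helps tie sister chromatids together, Birc5 and Ccnb2 rose more in Y-positive MB49, by 2.14, 1.46 and 1.24 on the log2 scale (adjusted p = 0.0038, 0.014 and 0.021, edgeR).

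**Figure D5:**
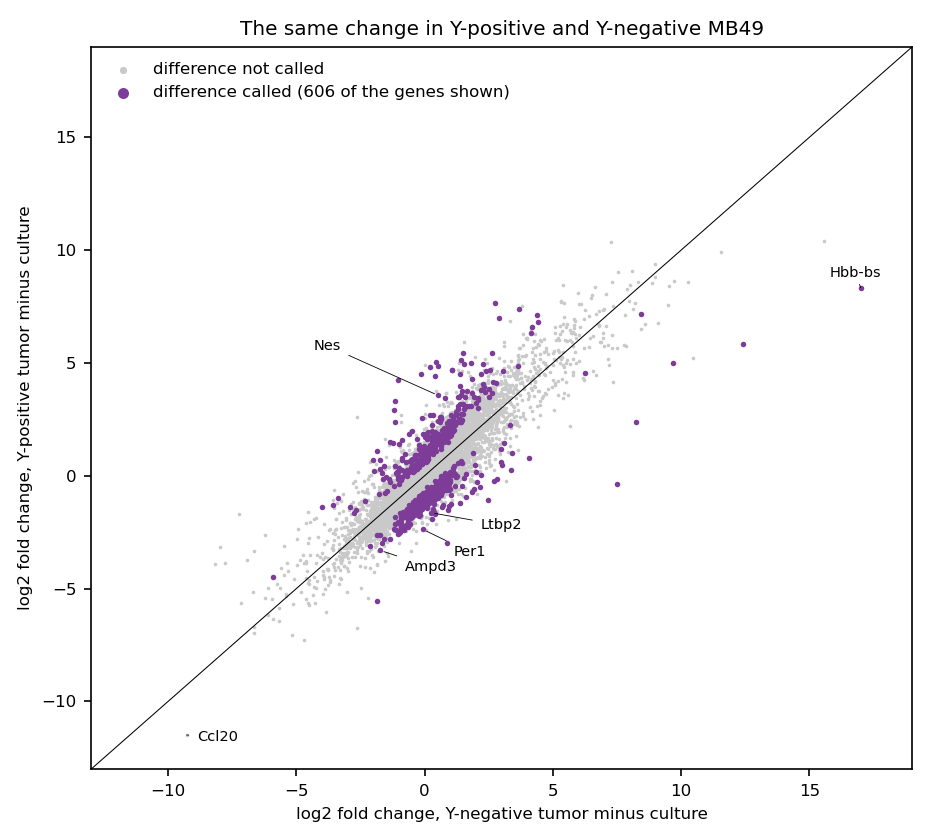
Each point is a gene tested in both comparisons, with its log2 fold change, tumor minus culture, in Y-negative MB49 on the horizontal axis and in Y-positive MB49 on the vertical axis. Purple points passed the test of the difference (606 of the genes shown) and the line marks equal change. Y-negative changes are from the model over 20 libraries, and Y-positive changes from the fit to the Y-positive libraries alone. Most genes lie along the line, and Hbb-bs, with almost no reads in Y-negative cultures, lies far from it.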

How the data were processed

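RNA-seq was made from 20 MB49 libraries, of which the 5 Y-positive cultures and 5 Y-positive tumors were compared. The authors deposited read counts and FPKM per gene in separate tables for cultures and tumors; per the submitters' processing notes, cutadapt 2.3, STAR 2.7.0d and RSEM 1.3.1 were used with FastQC 0.11.5, MultiQC 1.8 and the mm10 build. The deposited count columns were tested, and the authors' FPKM columns served only to describe genes listed for tumors alone, whose CPM and the sums over host lists use library totals without further scaling. Whether counting used strand, and how reads shared by copies were divided, is not given in these sources.

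Genes listed in both tables and outside chromosomes X and Y entered edgeR 4.0.16 (R 4.3.3), with filterByExpr at a count of 10 and a total of 15, TMM scaling, a quasi-likelihood test with p-values adjusted by Benjamini-Hochberg (threshold 0.05), and glmTreat for 2-fold. A model over 20 libraries tested the difference between genotypes and gave the Y-negative changes. Near-identical copies were sought among annotated transcripts. The fits were tested on simulated data. Alternatives used limma 3.58.1 and DESeq2 1.42.0, other scalings and filters, a removed length trend, and each library left out; leaving out genes with copies was added after seeing the data.

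Named genes were the 12 largest changes in each direction (at least 5 CPM, no overlap), up to 4 members of each list with the smallest adjusted p and the strongest opposing member, up to 3 tumor-only genes of each host list, the 5 clearest genotype differences in each direction, and Kdm5d and Uty. Other genes named were picked after their values were seen. The members and lists were chosen with earlier results of these data known. Genes of chromosomes X and Y entered only that check and 1 alternative. Some genes are not reported here.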

Additional observations from a re-analysis of the deposited data

Results flagged for a closer look

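For the genes named, each group of 5 libraries was examined for 1 library far from the other 4, and 34 of 430 groups held one, where chance gives about 1 in 20. These are values with no explanation. Tumor MP9 stood apart in 8 genes. It was higher for Acta2 (27.1 CPM, the others 11.4 to 14.7), Ctsl (1590.0, the others 847 to 1010), Inhba (29.3), Mfap5 (24.4), Phlda3 (10.9), S100a4 (68.3) and Tnc (50), and lower for Csf1r (74.6, the others 112 to 117). Tumor MP7 was higher for Arntl (27.0 CPM), Car9 (106.0), Elf3 (7.66, the others 1.73 to 2.68), Fosl1 (111), Igfbp3 (162.0), Nes (47.2, the others 18 to 26.2), Tap2 (186.0) and Tgfb1 (171.0). Tumor MP6 was higher for Cdh1 (8.54 CPM) and Tef (135.0), and MP8 for Cxcl16 (65.5).

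Among the cultures, MB19 was higher for Car9 (17.5 CPM, the others 0.687 to 4.20) and Col4a1 (988.0, the others 505 to 633) and lower for Klf6 (700.0, the others 1090 to 1220) and Myc (447.0, the others 680 to 768). MB17 was lower for Ajuba (14.7 CPM), Arntl (54.2), Fasn (62.6) and Vav1 (46.2) and higher for Hspa8 (737.0, the others 351 to 441) and Vegfa (379.0). MB34 was higher for Ccl9 (74.9 CPM, the others 17.6 to 26.7), Krt14 (3.34) and Mcm6 (47.1), and MB11 for Jchain (1.46) and Krt19 (2.48).

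The change from culture to tumor differed between Y-positive and Y-negative MB49 for 26 of the genes named, by the test of the difference in edgeR's model over 20 libraries (adjusted p under 0.05). As Y-positive minus Y-negative log2 change, it was more positive for Nes (3.04), Krt14 (2.40), Esco2 (2.14), Noa1 (1.52), Birc5 (1.46), Pbk (1.35), Ccnb2 (1.24) and Gusb (1.16). It was more negative for Per1 (-2.29), Per2 (-2.10), Per3 (-1.97), Ltbp2 (-1.85), Ampd3 (-1.55), Tctn1 (-1.54), Tef (-1.54), Tead1 (-1.47), Hspg2 (-1.43), Gata3 (-1.32), Mbd6 (-1.30), Ctsz (-1.29), Gigyf1 (-1.29), Jun (-1.12), Vegfa (-1.02) and Smad7 (-1.01). Hbb-bs (-8.66) and Ighm (-4.67) also passed, but their Y-negative cultures held almost no reads, so those sizes depend on the fit and are no bounds. Of all genes, 621 of 13340 passed this test (4.66%). The 5 clearest genotype differences in each direction were named because they passed it, so the 26 cannot be read against that share.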

How the results depend on the processing

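No paired analysis was possible because the labels give libraries only codes of their own, with no number shared between cultures and tumors. The 4 counts of genes higher or lower in tumors stayed within 1.5 times under every alternative run, from 3454 to 4974 higher and 3137 to 4497 lower. Of 215 genes named and tested, 197 were called, and 191 of these were called in the same direction under all 21 alternatives. The exceptions were Sc5d, Ddx58, Irf1, Ctsd, Pdpn and Tctn1. The number of genes whose change differed between genotypes, 621, was 1259 with DESeq2 and 169 to 1046 with 1 library left out. It was 303 without MB8, 282 without MB11, 338 without MB17, 200 without MP8 and 285 without MP9. Among the Y-negative libraries it was 355 and 1046 without the cultures BN6 and BN9, and 169, 1027, 319 and 207 without the tumors MN11 to MN14. The cause was not tested.

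Some genes that did not pass the test changed sign around 0. Upper quartile scaling gave Acaca 0.17, Ctsl 0.072 and Vav1 0.052, and library totals alone gave 0.18, 0.052 and 0.042. Scaling to reference genes gave Ajuba -0.094, Cd68 -0.091, Egr3 -0.083 and H2-D1 -0.056. Removing the length trend gave Acaca 0.13, Cd68 -0.13 and H2-D1 -0.11, and keeping chromosomes X and Y gave Cd68 -0.0033. With 1 library left out, the log2 change lay between -0.20 and 0.10 for Acaca, -0.037 and 0.089 for Ajuba, -0.10 and 0.21 for Cd68, -0.15 and 0.27 for Egr3, -0.0098 and 0.43 for Fen1, -0.024 and 0.17 for H2-D1 and -0.018 and 0.38 for Pdgfra. Depth limits mainly genes with few reads in 1 group.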
